A study of Mus musculus with 6 samples.

Results

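The post-squalene sterol enzymes carry squalene epoxide to cholesterol. The genes were taken by symbol from the deposited gene table. They were *Lss*, *Cyp51*, *Tm7sf2*, *Msmo1*, *Nsdhl*, *Hsd17b7*, *Ebp*, *Sc5d* and *Dhcr7*, 9 of the 59485 genes in the table, and each matched 1 row. RNA-seq of sciatic nerves was made from 3 control and 3 mutant mice at postnatal day 4 (P4), with 1 library per animal. The controls are labelled wild-type, which in the study's breeding scheme means Adar1fl/fl;R26R or Adar1fl/+;R26R without Cre, and the mutants are Ht-PA-Cre; Adar1fl/fl;R26R. Floxed *Adar1* and the R26R YFP reporter were by that scheme carried by both groups. The Cre transgene is driven by the human tissue plasminogen promoter and acts in neural crest (NC) cells and what they give rise to, Schwann cells (SCs) among them, but not in the fibroblasts of other origin, vessels, blood and muscle that come with a whole nerve.

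Cholesterol is built from acetyl-CoA through mevalonate and squalene. Lanosterol synthase (*Lss*) closes the rings, after which the enzymes in the endoplasmic reticulum strip methyl groups from lanosterol, shift or remove its double bonds and so arrive at cholesterol. Myelin is unusually rich in cholesterol, and myelinating SCs make most of theirs themselves. Transcription of the pathway is driven by SREBP2, the product of *Srebf2*, which is released from its membrane anchor when sterols are low and commonly works together with the promoter factors NF-Y and Sp1.

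The libraries held 50.9 to 78.3 M reads on genes. Values are normalised read counts, that is reads divided by a DESeq2 size factor of the library, and differences were tested with limma on log2(value + 1) over the 25802 genes with a mean of at least 10 in a group, a scale that understates changes of low genes. The threshold, taken from the study's methods, was a change of 2-fold or more together with an unadjusted p-value not above 0.05. Adjusted p-values follow Benjamini and Hochberg and cover every gene tested. With 3 animals against 3, an exact permutation test of a single value cannot go below 0.1. *Adar*, the targeted gene, had normalised read counts of 1602, 2066 and 1133 in controls against 11768, 9311 and 9773 in mutants, a log2 fold change of 2.72 (SE 0.20, adjusted p = 4.1e-05 with limma). This goes against the deletion in the label, and the table holds a single value per gene in which a deleted segment cannot be seen. The libraries are accordingly called control-labelled and mutant-labelled, and each direction below is drawn from the labels.

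**Figure D1:**
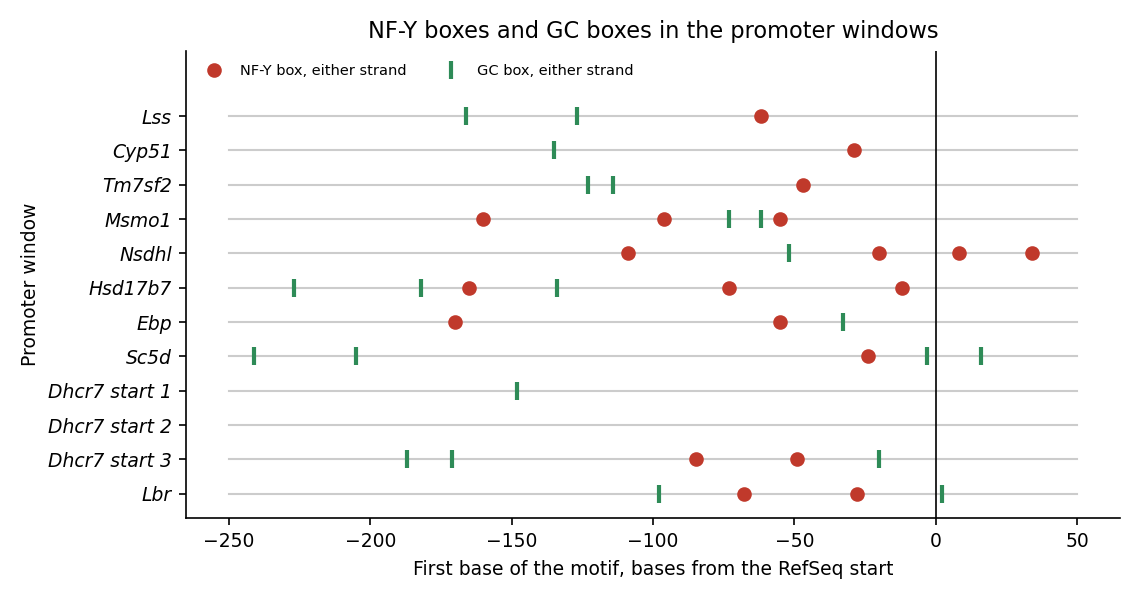
Matches to the NF-Y box (CCAAT, circles) and the GC box (GGGCGG, bars), on either strand, in 300-base RefSeq promoters, with the distance of the first base of the match from the annotated start in bases on the x axis and 1 line per start. Every enzyme gene has at least 1 NF-Y box, while the first and second starts of *Dhcr7* have none.

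The promoters of the 9 genes were read from RefSeq (GRCm38.p6, the assembly of mm10) as 250 bases before and 50 after each annotated start, which gave 11 starts because *Dhcr7* has 3. They are shown as a description of the promoters of these genes, and their part in the changes given below was not tested. CCAAT, searched on both strands, was present in the promoters of 9 of 9 genes and in 9 of 11 starts, against 37.4% of 32851 promoters of the same length. GGGCGG, the GC box that Sp1 binds, was present in 10 of 11 starts, against 35.7% of all promoters. The E-box CACGTG stood in 3 of the genes (7.15% of all promoters), and TCACNCCAC, a form of the sterol regulatory element, in 0 of them (1.24%), which says only that these letters are not in these windows. At least 3 CCAAT boxes were found in *Msmo1*, *Nsdhl* and *Hsd17b7*, against 3.37% of all promoters. No match to one motif overlapped a match to another in these 11 windows. Below, 30 bases around the box nearest upstream of the start are given on the strand of the gene, 5′ to 3′, with the box in capitals, CCAAT when it reads forward and ATTGG when it lies on the opposite strand. *Lbr*, which encodes a second enzyme for the step of *Tm7sf2*, is added for comparison.
Lss, chr10:76531531-76531560, + strand, box 62 bases before the start: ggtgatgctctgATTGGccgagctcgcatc
Cyp51, chr5:4104709-4104738, - strand, box 29 bases before the start: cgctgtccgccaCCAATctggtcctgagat
Tm7sf2, chr19:6067880-6067909, - strand, box 47 bases before the start: ctcccagcgctgATTGGctactgtgctggg
Msmo1, chr8:64733616-64733645, - strand, box 55 bases before the start: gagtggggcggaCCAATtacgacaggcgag
Nsdhl, chrX:72918489-72918518, + strand, box 20 bases before the start: aagactagcctcATTGGgcaaaatcatgct
Hsd17b7, chr1:169969206-169969235, - strand, box 12 bases before the start: gagccgggccgagccttgATTGGtcgaggt
Ebp, chrX:8193550-8193579, - strand, box 55 bases before the start: atccctgtactgATTGGttcgtcagattcg
Sc5d, chr9:42264307-42264336, - strand, box 24 bases before the start: cgccggctgctgATTGGccggctgcctgca
Dhcr7, the third start, chr7:143830153-143830182, + strand, box 49 bases before the start: aatccacttccgATTGGtcgtctgtgacct
Lbr, chr1:181842412-181842441, - strand, box 28 bases before the start: aaggtcgagggaCCAATggggagctcaggg

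The deposited start of *Dhcr7* is 143823167, the first RefSeq start, whose promoter held no CCAAT. The promoter of the third start, at 143830214, held 2. In *Msmo1* a GGGCGG box ends just before the printed CCAAT, and its letters can be read in the line above. *Ebp* and *Lbr*, whose log2 fold changes were -0.97 and -0.15, held 2 CCAAT boxes each.

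All 9 enzyme transcripts were lower in the mutant-labelled libraries. Past the threshold, 8 of 9 fell and 0 rose, against 10.4% and 13.9% of all genes tested, and *Ebp* stopped just short of 2-fold. The same 8 genes kept an adjusted p at or under 0.05 (8.46% of all genes) and a log2 fold change of -2 or lower (5.23%). In 9 of 9 each mutant-labelled value lay below each control-labelled value, which was so for 23.3% of all genes tested, while the opposite order held for 0 of 9 and for 25.9% of all genes. The adjusted p was at or under 0.05 for all 9 (16% of all genes in this direction), and the median log2 fold change was -2.72, against 0.03 over all genes tested. A nerve is a mixture of cells, so fewer SCs and less RNA per SC cannot be told apart in these values.

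**Figure D2:**
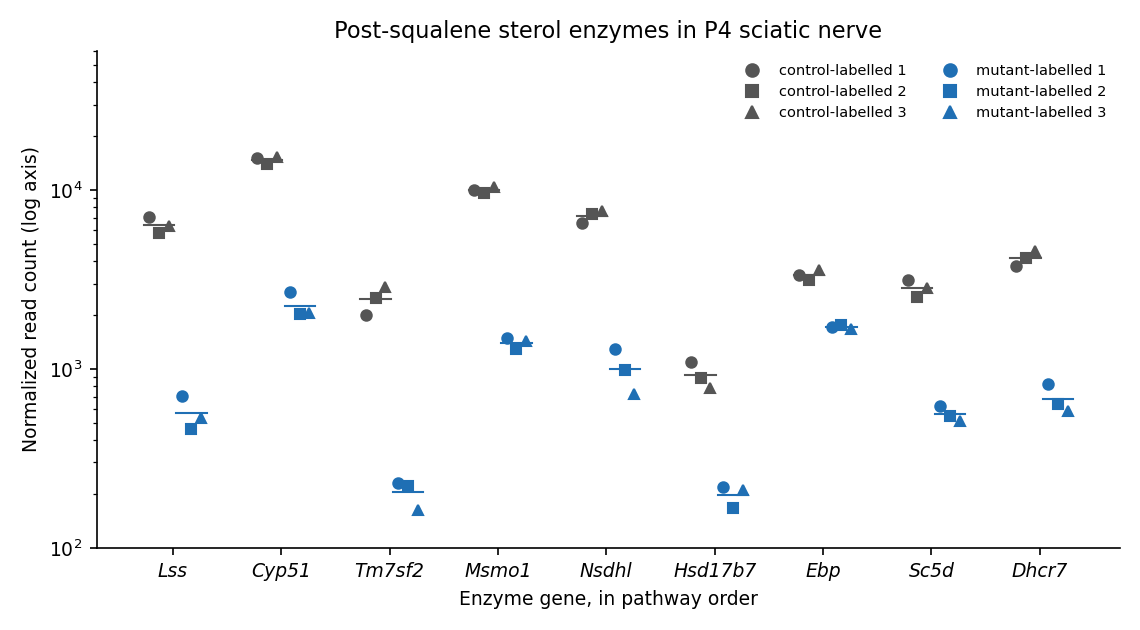
Normalised read counts (log axis) of the 9 enzyme genes, in pathway order, in the 3 control-labelled (grey) and 3 mutant-labelled (blue) libraries, with 1 symbol per library and a bar at the group mean. The groups are apart for every gene, by the least for *Ebp*.

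*Lss* (GSMG0003183, mm10 chromosome 10, 76531605 to 76557138, + strand) folds squalene epoxide into lanosterol and so makes the first sterol. Its normalised read counts were 7045, 5719 and 6323 in the control-labelled libraries and 705, 459 and 533 in the mutant-labelled ones. The lowest control-labelled library was 8.11 times the highest mutant-labelled one. The fall was 11.2-fold, with a log2 fold change of -3.51 (SE 0.17, adjusted p = 5.28e-06 with limma), the second largest among the 9 genes. *4930483K19Rik*, on the opposite strand, shares 11270 bases of its span and had at most 21.5 in any library.

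*Cyp51* (GSMG0030130, chromosome 5, 4080674 to 4104697, - strand) encodes the cytochrome that removes the first of the extra methyl groups of lanosterol. Values of 15172, 13891 and 15279 stood against 2707, 2030.04 and 2044. It had the highest read count of the 9 genes in each library, and mutant-labelled replicate 1 stood above the other two. The log2 fold change was -2.72 (SE 0.13, adjusted p = 4.55e-06), a 6.54-fold fall.

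*Tm7sf2* (GSMG0020005, chromosome 19, 6062821 to 6067869, - strand) reduces the double bond that CYP51 leaves behind. The control-labelled libraries had 2009, 2487 and 2882 and the mutant-labelled ones 231, 221 and 163. No library came near the other group, the smallest gap being 8.71 times. At 12.0-fold, this was the largest fall among the 9 genes (log2 fold change -3.58, SE 0.19, adjusted p = 9.24e-06). It shares 28 bases with *Vps51* on the same strand, and *Vps51* had a log2 fold change of -0.28 (adjusted p = 0.049).

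The same reduction can be made by the lamin B receptor, *Lbr* (GSMG0002572), which also anchors chromatin to the nuclear envelope. *Lbr* had 1377, 1279 and 1301 in the control-labelled libraries and 1189, 1447 and 972 in the mutant-labelled ones. These groups overlapped, and the log2 fold change of -0.15 had a 95% confidence interval from -0.51 to 0.20 (adjusted p = 0.484). The ratio of *Tm7sf2* to *Lbr* read counts was 1.46, 1.94 and 2.21 in control-labelled and 0.194, 0.153 and 0.168 in mutant-labelled libraries. The difference of the log2 ratio was -3.43 (two-sided exact permutation p = 0.1, the smallest the design allows). Per kilobase of exon, *Tm7sf2* had 559 ± 99.3 (SD, n = 3) against 277 ± 10.7 for *Lbr* in the control-labelled libraries, and 46.5 ± 8.28 against 253 ± 49.9 in the mutant-labelled ones. The order of the 2 reductase transcripts was thus opposite in the groups.

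*Msmo1*, *Nsdhl* and *Hsd17b7* encode the complex that takes off the remaining pair of methyl groups. *Msmo1* (GSMG0038489, chromosome 8, 64718142 to 64733582, - strand), the oxygenase, had 10046, 9596 and 10376 against 1482, 1296 and 1435. Replicates were close in both groups, and the log2 fold change of -2.83 had the smallest standard error of the 9 genes (SE 0.095, adjusted p = 1.45e-06). An unnamed gene on the same strand shares 1391 bases with it and had at most 258 in any library.

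*Nsdhl* (GSMG0041826, chromosome X, 72918521 to 72958528, + strand), the dehydrogenase that releases the oxidised carbon, had 6573, 7333 and 7588 against 1293, 986 and 728. It was the most variable of the 9 in the mutant-labelled libraries, where the highest was 1.78 times the lowest. The log2 fold change was -2.87 (SE 0.19, adjusted p = 2.29e-05). *Hsd17b7* (GSMG0002424, chromosome 1, 169949537 to 169969205, - strand), which reduces the ketone left at that position, was the lowest transcript of the complex, with 1086, 893 and 786 against 217, 166 and 211. Its log2 fold change of -2.21 (SE 0.19, adjusted p = 8.26e-05) was the smallest of the 8 past the threshold, a 4.65-fold fall. *Erg28*, listed under its older symbol 0610007P14Rik, holds these enzymes together at the membrane. It went from 4983, 4045 and 4680 to 2303, 2666 and 2313, a log2 fold change of -0.91 (SE 0.11, adjusted p = 0.000543) that did not reach 2-fold.

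*Ebp* (GSMG0042335, chromosome X, 8185330 to 8193512, - strand) encodes the isomerase that moves the ring double bond. Values of 3336, 3143 and 3586 stood against 1717, 1749 and 1667. The groups did not overlap and the mutant-labelled libraries were within 1.05 times of each other, the tightest of the 9 genes. The log2 fold change was -0.97 (95% confidence interval -1.19 to -0.75, adjusted p = 0.000174), a 1.96-fold difference just under the limit. It passed the limit when libraries were rescaled to the same 75th percentile (-1.09) or when control-labelled replicate 2 was left out (-1.02). An unnamed gene on the opposite strand spans the whole of *Ebp* and had between 16.0 and 153 in the 6 libraries. Whether strand was used in the counting is not given in the sources used here.

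*Sc5d* (GSMG0040626, chromosome 9, 42254139 to 42264300, - strand) inserts a ring double bond into lathosterol and *Dhcr7* (GSMG0035391, chromosome 7, 143823167 to 143848409, + strand) reduces the neighbouring one, which completes cholesterol. *Sc5d* had 3127, 2539 and 2847 against 618, 549 and 510, a log2 fold change of -2.34 (SE 0.13, adjusted p = 1.08e-05). *Dhcr7* had 3739, 4142 and 4566 against 823, 639 and 582, a log2 fold change of -2.62 (SE 0.15, adjusted p = 1.25e-05). Both pairs of groups were far apart, with the lowest control-labelled value 4.11 times the highest mutant-labelled one for *Sc5d* and 4.54 times for *Dhcr7*. An unnamed gene on the opposite strand shares 394 bases with *Dhcr7* and had at most 55.8 in any library.

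**Figure D3:**
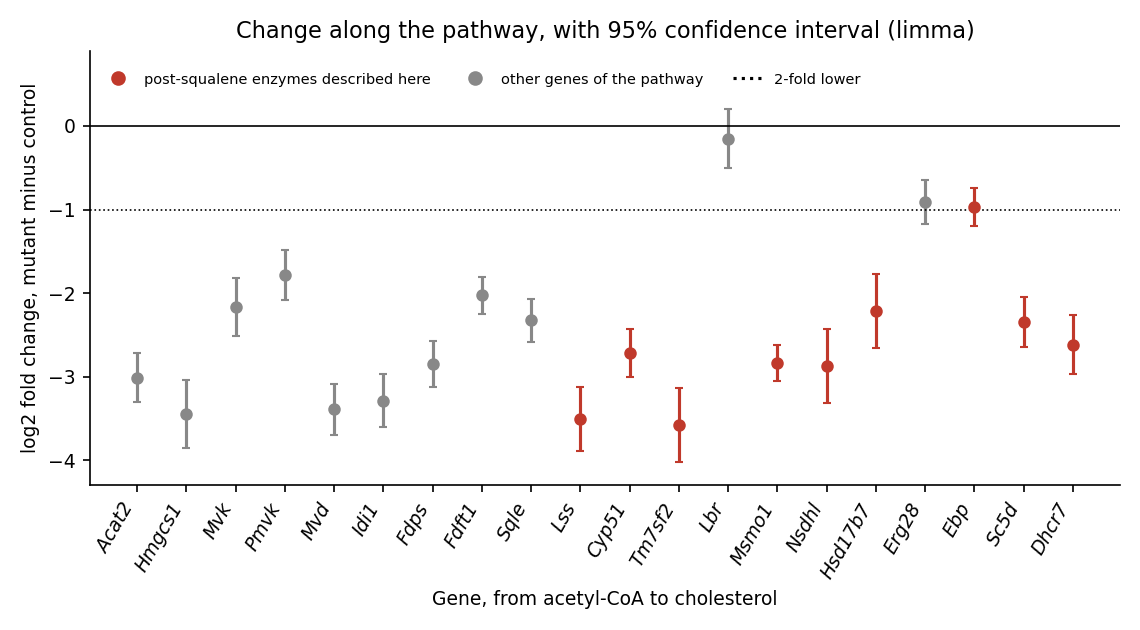
Log2 fold change (mutant-labelled minus control-labelled) of the pathway genes reported here, ordered from acetyl-CoA to cholesterol, with the 95% confidence interval from limma; the enzymes after squalene epoxide described here are red and the other pathway genes grey. *Lbr* lies at -0.15 with an interval across 0, and *Erg28* and *Ebp* lie at -0.91 and -0.97, just above the dotted line of 2-fold.

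Of the 13 other genes of the pathway, 11 fell past the threshold and 0 rose, against 10.4% and 13.9% of all genes tested. Their median log2 fold change was -2.85, against 0.03 over all genes. The 2 that did not pass were *Lbr* and *Erg28*. *Hmgcs1*, which acts on the way to mevalonate, had a log2 fold change of -3.45. *Acat2*, *Mvk*, *Mvd*, *Idi1*, *Fdps* and *Fdft1*, which act between acetyl-CoA and squalene, lay between -3.39 and -2.03. *Sqle*, which makes the epoxide that LSS uses, had a log2 fold change of -2.33. The smallest fall among the 11 was that of *Pmvk*, a mevalonate-pathway kinase (-1.78, SE 0.13, adjusted p = 3.34e-05).

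The falls differed in size among the enzymes. Each gene was therefore set against the mean log2 value of the other 8 within its library, a measure that does not depend on the scaling of libraries. On this measure *Ebp* was at -0.44, -0.47 and -0.38 in the control-labelled libraries and at 1.21, 1.56 and 1.54 in the mutant-labelled ones, a shift of 1.87. *Tm7sf2* and *Lss* shifted the other way, by -1.07 and -0.99. The shift was 0.47 for *Hsd17b7*, 0.32 for *Sc5d* and -0.23 for *Msmo1*. For these 6 genes the groups did not overlap (two-sided exact permutation p = 0.1, the smallest possible, and 0.15 after adjustment over the 9 genes). Over all genes tested 88% did not overlap, but genes outside the 9 were set against the mean of the enzymes, which itself fell. A gene without a change is thereby set apart, so this share is no measure for the 6 of 9. The count is therefore not read as a result, and only the sizes and directions describe the enzymes. *Cyp51*, *Nsdhl* and *Dhcr7* moved by -0.10, -0.28 and 0.01 with overlapping groups (exact p = 0.2, 0.2 and 0.8). The 9 values are not independent, since each gene is part of the reference of the others.

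**Figure D4:**
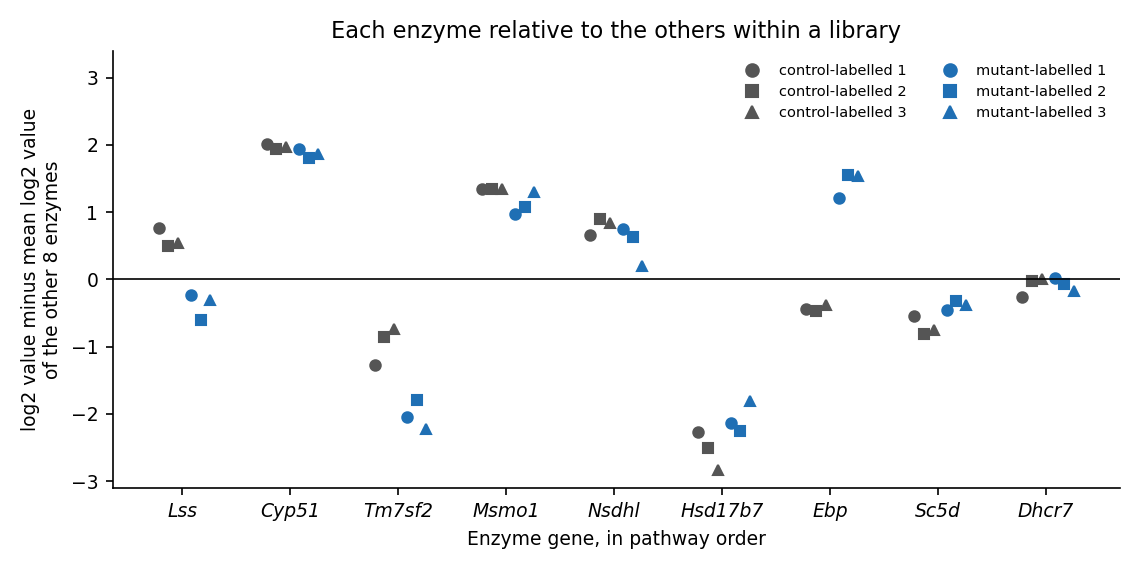
Log2 value of each enzyme minus the mean log2 value of the other 8 in the same library, with 1 symbol per library (control-labelled grey, mutant-labelled blue). *Ebp* moves from below 0 to above 1, *Lss* from above 0 to below it, and the groups of *Dhcr7* overlap.

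Levels were compared between genes per kilobase of GENCODE exon, an approximation, since the authors counted reads on constitutive regions only. The exons of all transcripts of a gene were merged, which gave from 2310 bases for *Ebp* to 10787 for *Lss*. The order between genes depends on these lengths, and other lengths were not tried. In the control-labelled libraries *Cyp51* was first, with 3348 ± 175 normalised reads per kilobase (SD, n = 3). *Nsdhl* followed with 2511 ± 185.2, *Msmo1* with 1629 ± 63.7 and *Ebp* with 1452 ± 96.3. *Dhcr7* (713 ± 71.1), *Lss* (590 ± 61.5), *Sc5d* (583 ± 60.4) and *Tm7sf2* (559 ± 99.3) followed, each overlapping its neighbour in this order, and *Hsd17b7* was last with 181 ± 29.8. In the mutant-labelled libraries *Ebp* was first, with 741 ± 18.0, ahead of *Cyp51* with 512 ± 87.6 and *Nsdhl* with 351 ± 99.2, whose highest library (453) was just under the lowest of *Cyp51* (459.8). *Msmo1* had 229 ± 15.7, *Dhcr7* 117 ± 21.7 and *Sc5d* 115 ± 11.2. *Lss*, *Tm7sf2* and *Hsd17b7* closed the order with 52.4 ± 11.7, 46.5 ± 8.28 and 38.8 ± 5.48, with overlapping neighbours. With these lengths *Ebp* thus followed *Cyp51*, *Nsdhl* and *Msmo1* in the control-labelled libraries and preceded all of them in the mutant-labelled ones.

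Several of these enzymes need electrons from a partner. Of 7 donors and partners, *Cyb5a* fell past the threshold, *Cyb5r1* rose past it and 5 did not pass, 1 of 7 in each direction against 10.4% lower and 13.9% higher over all genes tested. *Cyb5a*, the cytochrome that feeds the oxygenase and the desaturase, went from 7327, 7162 and 6826 to 3010, 3322 and 3097 (log2 fold change -1.18, SE 0.088, adjusted p = 3.94e-05). *Cyb5r1*, a reductase of the same family as *Cyb5r3*, went from 1358, 1344 and 1377 to 6322, 4912 and 7091 (2.15, SE 0.14, adjusted p = 1.89e-05). *Por*, the reductase that serves CYP51, had a log2 fold change of 0.50 (adjusted p = 0.0114), in the opposite direction to *Cyp51*. *Cyb5b*, the mitochondrial form of the cytochrome, and *Pgrmc2* had -0.60 and -0.51 (adjusted p = 0.0064 and 0.00651 with limma), and *Pgrmc1* had -0.17 (adjusted p = 0.125). *Cyb5r3* differed by -0.0043, with a 95% confidence interval from -0.22 to 0.22.

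Of 10 genes of sterol sensing, 3 fell past the threshold, 1 rose and 6 did not pass, against 10.4% lower and 13.9% higher over all genes tested. *Srebf2* went from 4794, 5205 and 5269 to 2415, 1874 and 1994 (log2 fold change -1.29, SE 0.12, adjusted p = 0.000104). *Insig1*, which holds the SREBP escort in the endoplasmic reticulum and is itself an SREBP target, had a log2 fold change of -3.12 (SE 0.097, adjusted p = 1.23e-06). *Nr1h3*, the oxysterol receptor LXR alpha, went from 125, 130.4 and 112 to 577, 757 and 498 (2.29, SE 0.22, adjusted p = 0.000129). The log2 fold changes of *Srebf1*, *Scap*, *Insig2*, *Mbtps1*, *Mbtps2* and *Nr1h2*, none of which reached 2-fold, lay between -0.72 and 0.50.

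**Figure D5:**
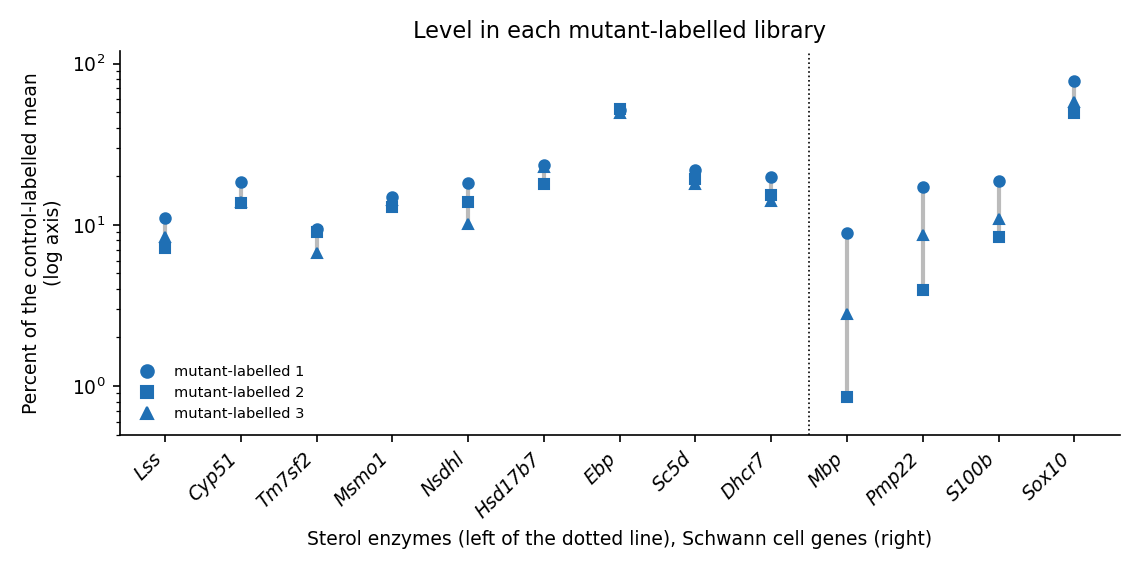
Level in each mutant-labelled library as a percentage of the mean of the control-labelled libraries (log axis), for the 9 sterol enzymes left of the dotted line and 4 SC genes right of it. Each enzyme varies at most 1.78 times among the 3 libraries and *Sox10* 1.57 times, while *Mbp* spans from 0.859 to 8.94%.

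The mutant-labelled libraries differed from each other in their content of myelin transcripts. *Mbp*, a major myelin protein, was at 8.94, 0.859 and 2.80% of the control-labelled mean in mutant-labelled replicates 1, 2 and 3. *Pmp22*, another myelin protein, was at 17.2, 3.91 and 8.58%, and *S100b*, a calcium-binding protein of SCs, at 18.7, 8.37 and 10.8%. *Sox10*, which marks SCs at all stages, was at 78.0, 49.7 and 58.1%. Mutant-labelled replicate 1 was highest for these 4 genes and for 8 of the 9 enzymes, *Ebp* being the exception, against 34.4% of all genes tested. The ratio of the highest to the lowest mutant-labelled library was between 1.05 and 1.78 for the enzymes. It was 10.4 for *Mbp*, 4.40 for *Pmp22* and 2.24 for *S100b*, above the range of the enzymes, and 1.57 for *Sox10*, inside it. Without mutant-labelled replicate 1, 8 enzymes remained past the threshold and the median log2 fold change was -2.86.

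The fall of *Sox10*, with a log2 fold change of -0.71 (95% confidence interval -1.07 to -0.35), was smaller than that of any of the 9 enzymes. The interval of *Ebp* overlapped it, and the other 8 intervals did not; the differences themselves were not tested. Of the 9 SC markers examined, 6 fell past the threshold and 0 rose (10.4% and 13.9% of all genes tested), and their summed value was 3609340 to 4426150 in the control-labelled and 119624 to 556185 in the mutant-labelled libraries. Markers of other cells were read against the same shares of 10.4% lower and 13.9% higher. Of 6 skeletal muscle markers 5 rose past the threshold, with sums of 5197 to 28361 and 34537 to 268128. Of 6 erythroid markers 5 fell, with sums of 54935 to 76999 and 5133 to 15724. Of 6 macrophage markers 2 fell and 1 rose, of 6 fibroblast markers 2 fell (*Col1a1* and *Col1a2*), of 5 perineurial markers 1 fell (*Itgb4*), and of 6 endothelial markers 0 passed in either direction. A count of 1 in lists this short is near those shares. Of 6 adipocyte markers 0 passed, and their sum was 5315 to 11344 in the control-labelled and 3187 to 23515 in the mutant-labelled libraries, with *Plin1*, *Cidec*, *Lep* and *Retn* at 0 in at least 1 library. The part of these markers in the falls of the enzymes was not tested.

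*Nsdhl* and *Ebp* are on the X chromosome. *Xist*, the RNA of the inactive X, had 7851, 0 and 6503 in the control-labelled libraries and 0, 9325 and 0 in the mutant-labelled ones, so each group held libraries with and without it. Among the libraries with *Xist*, *Ebp* had 3336 and 3586 against 1749, and among those without it 3143 against 1717 and 1667. *Nsdhl* had 6573 and 7588 against 986 in the libraries with *Xist*, and 7333 against 1293 and 728 in the others. With the presence of *Xist* as a term in the limma fit, chosen after seeing the data, the log2 fold change was -2.88 for *Nsdhl* (SE 0.21, adjusted p = 8.34e-05) and -0.94 for *Ebp* (SE 0.11, adjusted p = 0.000596).

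The 10 genes outside these lists whose profile was nearest to the mean profile of the 9 enzymes were sought among 12956 genes with a symbol and a mean value of at least 100. Likeness was the root mean square difference of centred log2 values over the 6 libraries. *Scd2*, a fatty acid desaturase, was the nearest at 0.088, with 296486, 294425 and 335920 against 53068, 41105 and 41822. Among the others were *Ccdc74a*, *Fnta* (a subunit of farnesyltransferase), *Adam23*, *2810468N07Rik*, *Gstm7*, *Aacs* (acetoacetyl-CoA synthetase), *Fasn* (fatty acid synthase) and *Galc* (galactosylceramidase), the last at 0.149. The log2 fold changes of the 10 genes lay between -2.78 and -2.40, which follows from choosing them by this profile. Of the enzymes themselves *Cyp51* was nearest to the mean profile, at 0.062, and *Ebp* was farthest, at 0.836, while *Lbr* was at 1.25.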

How the data were processed

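Sciatic nerves of 3 control and 3 mutant mice at P4 were sequenced by the authors from poly-A RNA in oriented, paired-end libraries. Per the labels and the study's methods, reads were mapped to mm10 with STAR 2.4.0 and counted on constitutive regions of FAST DB genes. The deposited table holds a signal per gene and library, read counts divided by a DESeq2 size factor. Whole reads were recovered for 100% of values (tolerance 0.01), each worth 0.727 to 1.27 units. Of the genes with 1 to 20 reads, 74.9 to 76.2% had an even number, so a counted read is not an independent fragment, and SDs and p-values measure the spread between animals. Groups came from the labels.

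log2(value + 1) was fitted with limma 3.58.1 (eBayes with trend). edgeR 4.0.16 and DESeq2 1.42.0 on the recovered reads, other scalings, pseudocounts and filters, a replicate block, *Xist* status as a term and leaving out each library were alternatives. The code was tested on simulated data. The genes named are the 9 members, *Adar*, *Xist*, the fixed pathway, donor, sensing and marker lists, and the 10 nearest profiles. Genes that overlap a member were chosen for that overlap. The members and lists were chosen with earlier results of these data known. Motifs were matched by letters in RefSeq promoters. Editing, splicing and the authors' expression filter were not analysed here. A few listed genes are left unreported. R 4.3.3 and Python 3.11.15 were used.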

Additional observations from a re-analysis of the deposited data

How the results depend on the processing

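Results were computed again under 13 alternative settings and after dropping each of the 6 libraries. Of 171 recomputed log2 fold changes of the 9 enzymes, 169 kept their direction and their side of the threshold. The other 2 were those of *Ebp*, which passed 2-fold at the same 75th percentile (-1.09) and without control-labelled replicate 2 (-1.02). The count of enzymes past the threshold was 8, or 9 in these cases, and 8 to 9 over the left-out libraries. The count of other pathway genes was 11, or 12 at the same 75th percentile, and 11 for each left-out library. The enzymes' median log2 fold change ranged from -2.86 to -2.56 over all settings and from -2.86 to -2.65 over the left-out libraries. The median of all genes tested was 0.20 with the same total and -0.09 with the same 75th percentile. The count of enzymes whose value relative to the others did not overlap between groups was 6, and 5 with the median of the others as reference, 7 with a pseudocount of 10 and 6 to 8 over the left-out libraries, where fewer values make an overlap rarer. One setting, *Xist* status as a term, was added after seeing the data and gave 8 enzymes and a median of -2.73. Same-numbered libraries come from different animals, and their deviations correlated at -0.06, -0.06 and 0.009. Differently numbered libraries correlated between -0.02 and 0.07. The libraries were treated as unpaired, but this check cannot show whether same-numbered animals shared a litter or handling. With the replicate block, the count of enzymes past the threshold was 8 and their median -2.72. Groups of 3 limit every exact test to p = 0.1.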
